A study of Mus musculus with 24 samples.

Results

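The libraries named Oli_ISR came from IL-4/IL-13–treated bone marrow–derived macrophages (BMDM) that also received oligomycin, and they are compared here with the libraries of macrophages given IL-4/IL-13 alone. Members were chosen by the ending of the library name: 4 libraries end in Oli_ISR and 4 end in M2, 8 of 24 libraries in all, and they were paired by the mouse number that opens the name. The mice were wild-type female C57BL/6J animals aged 9 weeks, numbered 1, 2, 4 and 5, and each gave 1 RNA-seq library in each of 6 conditions. IL-4 and IL-13 were used at 20 ng/mL each for 24 hours. Naive macrophages received no cytokine, and inhibitors were added 1 hour before the cytokines and kept with them. Besides oligomycin at 1 µM, the other treatments were Sal003 at 10 µM and tunicamycin at 5 µg/mL, each with IL-4/IL-13. All groups share the M-CSF culture of the bone marrow, so all carry its growth factor, and no group received an inhibitor without the cytokines.

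The labels conflict on ISRIB, a compound that counteracts the integrated stress response (ISR). A second set of 4 oligomycin libraries is named Oligo. By the sample titles and the stated treatment, the Oli_ISR libraries had oligomycin without ISRIB and the Oligo libraries had both. By the library names and the replicate tags, ISRIB (1 µM) was in the Oli_ISR libraries and absent from the Oligo libraries. The expression values were not used to choose between these readings, and the groups are called Oli_ISR and Oligo throughout. Each difference between Oli_ISR and IL-4/IL-13 below is thus one between cells with and without oligomycin, or with and without oligomycin and ISRIB together.

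Oligomycin blocks the mitochondrial ATP synthase. When mitochondria or other compartments are stressed, kinases phosphorylate the translation factor eIF2, general protein synthesis slows, and the transcription factor ATF4 is made in larger amounts and turns on genes for amino acid supply, tRNA charging and stress signaling. In macrophages, IL-4 and IL-13 act through STAT6 and induce a program of secreted proteins, lectins and metabolic enzymes, of which *Arg1* and *Retnla* are the best known members.

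Libraries held 16238727 to 26725278 counts on genes (median 18999998). The Oli_ISR library of mouse 5 was the deepest. Expression is given as CPM, counts brought to a common library size that is scaled with the trimmed mean of M values (TMM), and CPM are compared between libraries for a gene and never between genes. The 9 macrophage identity genes (*Adgre1* and *Cd68* among them) summed to 14010 to 15573 CPM of unscaled counts in the Oli_ISR libraries and 12622 to 14528 in the IL-4/IL-13 libraries, with none at 0 in either group. The 24 markers of neutrophils, fibroblasts, dendritic cells, lymphocytes, erythroid cells and mast cells or basophils summed to 34.1 to 69.96 CPM in the Oli_ISR libraries and 47.5 to 137 CPM in the IL-4/IL-13 libraries. The T cell genes *Cd3e* and *Cd3d* and the erythroid gene *Hbb-bs* were at 0 in all Oli_ISR libraries. Of these 24 markers, 12 had enough counts to test, and 11 were lower in the Oli_ISR libraries, where 28.4% of all genes were (median log2 fold change −0.85), led by the neutrophil precursor gene *Mpo* (−3.59 ± 0.61). The part of these cells in the results below was not tested. These were bulk RNA samples, in which fewer cells of a type and less RNA per cell cannot be told apart.

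Of 13679 genes tested, 3990 were higher in the Oli_ISR than in the IL-4/IL-13 libraries (29.2%) and 3879 were lower (28.4%) at an adjusted *P* under 0.05, from the quasi-likelihood test of edgeR with the mouse as a block and Benjamini-Hochberg adjustment over all genes. With a change of at least 2.5-fold as well, 403 genes were higher (2.95%) and 689 were lower (5.04%). Since more than 1 gene in 4 passed in each direction, the count of any gene group is read below against those shares and against the median log2 fold change of all genes, 0.0028. A log2 fold change is always Oli_ISR minus IL-4/IL-13 unless another pair is named. Over 28 gene lists, the medians ran from 2.57 for interferon-stimulated genes to −2.45 for proliferation genes. Once condition and mouse were fitted, the libraries differed by a median coefficient of biological variation of 5.81% per gene, so that small differences passed the test as well.

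**Figure D1:**
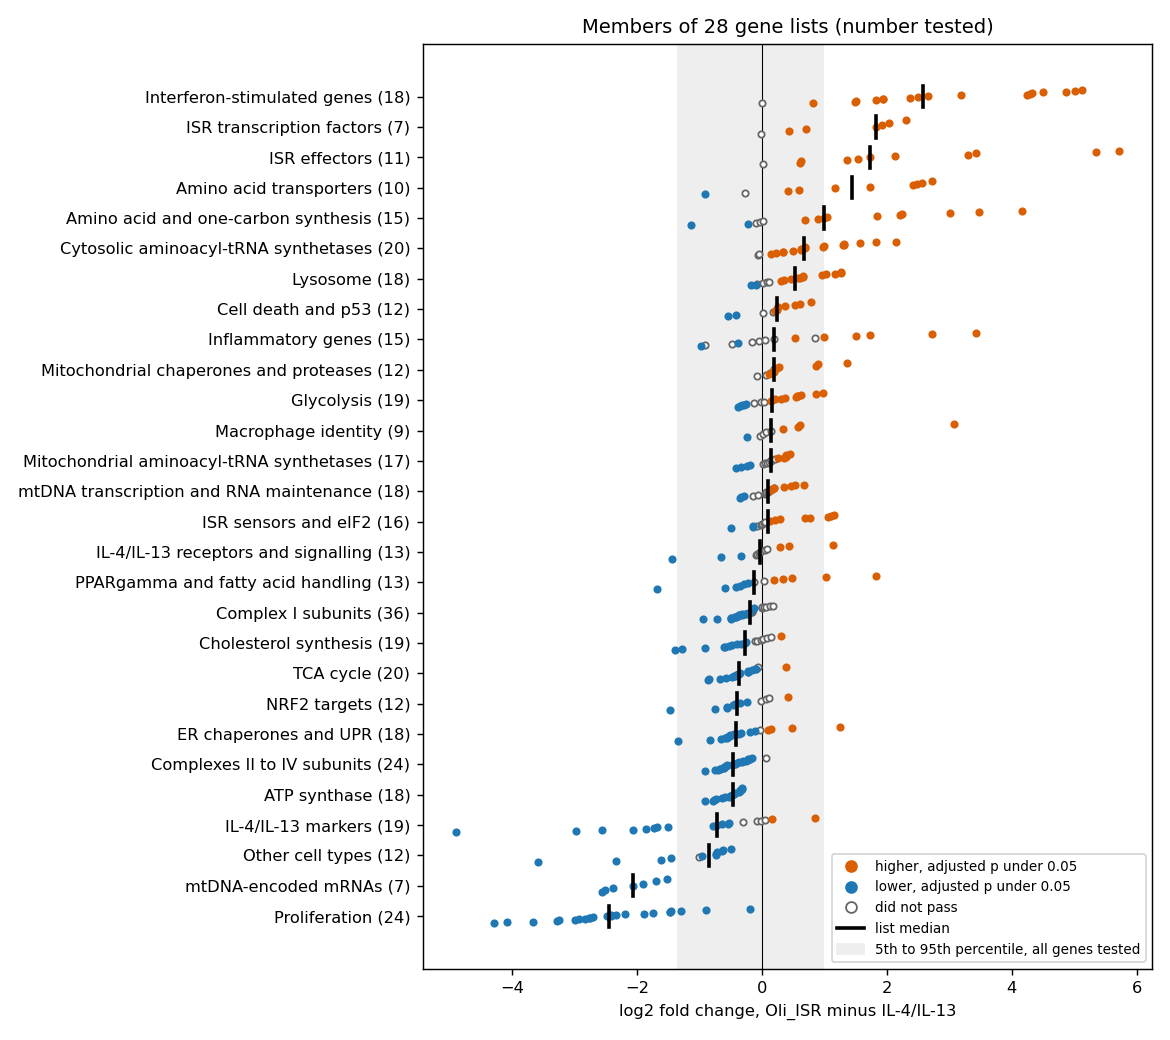
Log2 fold change (Oli_ISR minus IL-4/IL-13, x axis) of each tested member of 28 gene lists (y axis, number tested in brackets), with points colored by the edgeR test, bars at list medians and the 5th to 95th percentile of all genes tested (−1.35 to 0.97) in gray. Interferon-stimulated genes and ISR transcription factors have the highest medians (2.57 and 1.82), and mtDNA-encoded mRNAs and proliferation genes the lowest (−2.06 and −2.45).

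The transcription factors of the ISR were higher in the Oli_ISR libraries, with 6 of 7 past the test, none lower, a median of 1.82, and 4 past 2.5-fold. *Atf4* (chr15:80139372-80141745, plus strand, GRCm39), the central factor of the response, had 143, 134, 124 and 142 CPM in the IL-4/IL-13 libraries of mice 1, 2, 4 and 5, and 480, 461, 466 and 505 CPM in the Oli_ISR libraries. The groups lay far apart, with a log2 fold change of 1.82 ± 0.06 (SE of the model, n = 4 mice) and an adjusted *P* of 2.4e-17. *Atf5*, a related factor linked to the mitochondrial stress response, went from 72.2, 69.9, 68.4 and 75.6 CPM to 381, 322, 382 and 336 CPM (log2 fold change 2.31 ± 0.06, adjusted *P* = 2.6e-18). *Nupr1*, a small stress-induced chromatin protein, rose from 8.30, 7.36, 6.63 and 6.25 CPM to 26.5, 32.3, 26.1 and 31.7 CPM (2.03 ± 0.13). *Ddit3*, which encodes the stress factor CHOP, rose from 33.8, 31.9, 30.2 and 33.7 CPM to 116, 124, 121 and 132 CPM (1.93 ± 0.10), but 82.4% of its exon bases overlap genes on the opposite strand, mainly *Mars1*, and the sources do not say whether reads were counted by strand, so its value is uncertain. *Atf3*, another stress-induced factor of the ATF family, stood apart from this group. Its IL-4/IL-13 libraries had 869, 884, 854 and 856 CPM and its Oli_ISR libraries 897, 855, 857 and 820 CPM, and these ranges overlapped (log2 fold change −0.01 ± 0.05, adjusted *P* = 0.80). In naive macrophages *Atf3* had 275 to 316 CPM, below all 8 of these libraries.

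**Figure D2:**
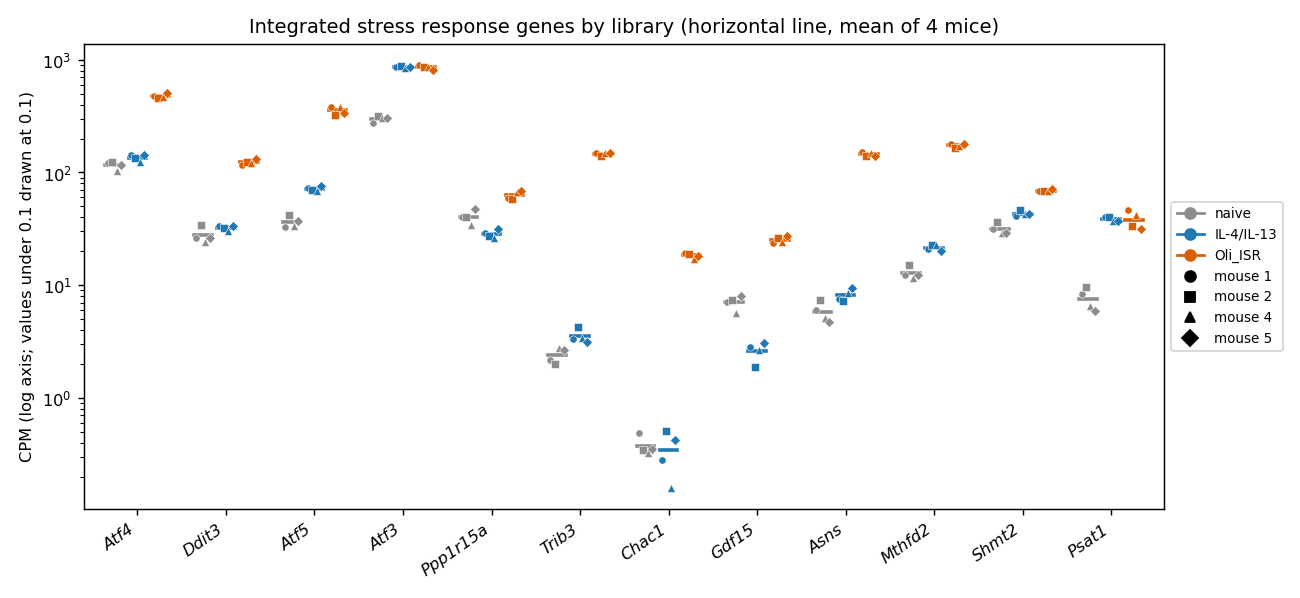
CPM (log axis) of 12 ISR genes in each library, by group (color) and mouse (symbol), with lines at group means; values under 0.1 are drawn at 0.1. The Oli_ISR libraries lie above all IL-4/IL-13 libraries for 10 of the genes, such as *Atf4* (461 to 505 against 124 to 143 CPM), while the groups overlap for *Atf3* and *Psat1*.

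The upstream part of the pathway differed less. Of 16 genes for eIF2 kinases, eIF2 and eIF2B subunits, phosphatase subunits and relay proteins, 8 were higher and 3 lower, with a median of 0.09 and none past 2.5-fold. *Ppp1r15a* (GADD34), the inducible subunit of the phosphatase that reverses eIF2 phosphorylation, had 29.0, 27.1, 26.2 and 31.7 CPM with IL-4/IL-13 and 59.5, 57.9, 67.2 and 68.5 CPM in Oli_ISR, with no overlap (1.15 ± 0.08, adjusted *P* = 5.3e-12). *Eif2ak2*, the double-stranded RNA-activated kinase PKR, which is itself an interferon-stimulated gene, rose by 1.10 ± 0.12 on the log2 scale. *Eif2ak1* (HRI), the kinase that relays mitochondrial stress, moved little the other way, from 120 to 130 CPM down to 108 to 118 CPM (−0.14 ± 0.04, adjusted *P* = 2.4e-03, with 28.6% of exon bases under opposite-strand genes). The eIF2 subunit gene *Eif2s2* (1.06) and the eIF2B subunit gene *Eif2b3* (0.76) were higher, and 26.6% of the 100-base stretches of the *Eif2s2* transcript also occur elsewhere in the genome.

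Further ISR targets rose as well. Of 13 such genes, 11 could be tested, 10 were higher and none was lower (median 1.73, with 8 past 2.5-fold). *Chac1*, which degrades glutathione, had 0.279, 0.504, 0.158 and 0.425 CPM with IL-4/IL-13 and 19.2, 18.8, 17.1 and 18.3 CPM in Oli_ISR (log2 fold change 5.72 ± 0.26, adjusted *P* = 5.6e-19). *Trib3*, a pseudokinase that feeds back on ATF4 and CHOP, had 3.34, 4.29, 3.42 and 3.16 CPM against 150, 140, 148 and 148 CPM (5.35 ± 0.12, adjusted *P* = 1.9e-21). The Oli_ISR libraries agreed closely with each other for both genes, and each lay far above the 4 IL-4/IL-13 libraries. *Gdf15*, a secreted stress hormone, went from 2.84, 1.87, 2.63 and 3.10 CPM to 23.5, 26.2, 24.3 and 27.4 CPM (3.29 ± 0.14). The cytokine gene *Il6*, also on this list, stayed rare. It had 17, 16, 13 and 18 counts in the Oli_ISR libraries and 2, 0, 1 and 2 in the IL-4/IL-13 libraries, a ratio of 11.7 with an exact 95% interval of 4.76 to 37.3 that covers counting error only. The cell cycle inhibitor gene *Cdkn1a* rose by 0.61 ± 0.08 on the log2 scale.

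The letters of the C/EBP-ATF element, TGATGNAA, to which ATF4 heterodimers are known to bind, were searched on both strands from 250 bases before to 50 after the starts that RefSeq gives. They were present in 4.51% of 27025 genes. Among list members with such a window, 2 of 7 ISR transcription factors, 4 of 12 further targets, 3 of 14 genes of amino acid synthesis, 2 of 7 amino acid transporters and 5 of 13 cytosolic aminoacyl-tRNA synthetases held them. Other lists with higher members held few or none, with 1 of 13 ISR sensors and eIF2 genes, 0 of 9 mitochondrial chaperones and proteases, 0 of 15 mitochondrial synthetases and 0 of 14 interferon-stimulated genes. A match is a description of the letters only. The stretches below hold the element in capitals. Their genes were picked among members that hold the letters, for a large change or, with *Atf3*, for none. The windows of *Atf5*, *Ddit3* and *Atf4*, which rose as well, were without these letters. *Slc7a11*, whose groups of libraries overlapped, holds them at −66 to −59 and at −47 to −40 and is not shown. The stretches are read 5′ to 3′ along the strand of the gene, from RefSeq windows placed in GRCm39 by exact match. Positions count from the RefSeq start, which for some genes lies inside the gene that GENCODE annotates. The element of *Chac1* lies at −193 to −186 (chr2:119181519-119181548, plus strand), that of *Trib3* at 15 to 22 (chr2:152185948-152185977, minus strand), that of *Asns* at −23 to −16 (chr6:7693214-7693243, minus strand), and that of *Nupr1* at −110 to −103 (chr7:126224734-126224763, minus strand). *Slc1a4* has it across the start, at −4 to 4 (chr11:20282699-20282728, minus strand). *Atf3*, which did not pass the test, holds it as well, at −110 to −103 (chr1:190915622-190915651, minus strand).
Chac1: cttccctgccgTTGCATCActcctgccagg
Trib3: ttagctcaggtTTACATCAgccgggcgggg
Asns: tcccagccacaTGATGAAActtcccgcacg
Nupr1: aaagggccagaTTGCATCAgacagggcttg
Slc1a4: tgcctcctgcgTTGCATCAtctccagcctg
Atf3: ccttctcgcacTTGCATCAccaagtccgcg

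Genes that make or import amino acids were higher too. Of 15 tested genes of serine, glycine, folate, asparagine, proline and cysteine synthesis, 10 were higher and 2 lower (median 0.98). *Asns*, asparagine synthetase, had 7.46, 7.26, 8.53 and 9.35 CPM with IL-4/IL-13 and 151, 141, 150 and 140 CPM in Oli_ISR (4.16 ± 0.10, adjusted *P* = 1.3e-19). *Mthfd2*, an enzyme of mitochondrial folate metabolism, had 20.7, 22.7, 22.7 and 19.9 CPM against 180, 166, 173 and 179 CPM (3.02 ± 0.08). In both genes the lowest Oli_ISR library was several times the highest IL-4/IL-13 library. *Aldh18a1*, the first enzyme of proline synthesis, rose by 2.24, and *Phgdh*, the first of serine synthesis, by 3.48, although 44.2% of the *Phgdh* transcript's stretches occur elsewhere. Serine synthesis did not move as a whole: *Psat1*, the enzyme after *Phgdh*, had 40.0, 40.4, 37.4 and 37.1 CPM against 46.1, 33.4, 41.6 and 31.4 CPM, with overlapping groups (−0.03 ± 0.10, adjusted *P* = 0.80). *Shmt2*, which links serine to the folate cycle, rose by 0.68 ± 0.05.

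Of 10 tested amino acid transporters, 8 were higher and 1 lower (median 1.44). *Slc7a1*, an arginine and lysine importer, rose from 15.9, 15.6, 18.0 and 12.4 CPM to 95.6, 90.9, 99.0 and 80.8 CPM (2.56 ± 0.07). *Slc1a4*, a neutral amino acid transporter, rose by 2.72 ± 0.14, *Slc7a5*, a leucine importer, by 2.48 ± 0.09, and the glycine transporter *Slc6a9* by 2.42 ± 0.15, with 33.9% of *Slc6a9* exon bases under opposite-strand genes. *Slc7a11*, the cystine importer, had 22.6, 17.0, 23.4 and 16.0 CPM against 14.0, 13.6, 17.4 and 14.0 CPM, and here the groups overlapped. Its call (0.41 ± 0.12, adjusted *P* = 6.5e-03) was lost without mouse 1 (0.30, adjusted *P* = 0.13).

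The synthetases that charge tRNAs in the cytosol and those of mitochondria differed from each other. Of 20 cytosolic synthetase genes, 18 were higher and none was lower (median 0.67), and the libraries of the groups did not overlap for 18, against 26.2% of all genes not overlapping in this direction. The largest changes were in *Aars1* (2.14 ± 0.06, from 72.7 to 76.4 CPM up to 321 to 337 CPM), *Cars1* (1.83 ± 0.06), *Sars1* (1.57 ± 0.05) and *Mars1* (1.31 ± 0.05, overlapping *Ddit3*), which charge alanine, cysteine, serine and methionine. Of 17 mitochondrial synthetase genes, 6 were higher and 4 lower (median 0.14), shares near those of all genes. Their extremes were small, with 0.45 ± 0.08 for *Aars2*, 0.39 for *Tars2* and for *Nars2*, and −0.41 ± 0.08 for *Cars2*.

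The chaperones of the endoplasmic reticulum (ER), which the unfolded protein response of that organelle induces, went the other way. Of 18 such genes, 13 were lower and 4 higher (median −0.41). *Sdf2l1*, an ER chaperone cofactor, fell from 214, 218, 222 and 212 CPM to 88.3, 85.8, 82.7 and 85.2 CPM (−1.34 ± 0.07). *Hspa5* (BiP), the main ER chaperone, had 986, 1090.4, 1196 and 1021 CPM against 764, 895, 820 and 839 CPM, lower with no overlap (−0.37 ± 0.05, adjusted *P* = 8.9e-07), and 44.2% of its exon bases lie under an opposite-strand gene. *Creld2* (−0.83 ± 0.07) and *Hsp90b1* (−0.65 ± 0.04) were lower as well. *Ern1*, which encodes the ER stress sensor IRE1, was the largest exception, rising from 77.1 to 84.6 CPM up to 180 to 196 CPM (1.24 ± 0.07). Of 12 mitochondrial chaperones and proteases, 8 were higher and none was lower (median 0.19). *Hspa9* (mortalin), the mitochondrial HSP70, rose from 223, 229, 240 and 229 CPM to 627, 549, 613 and 565 CPM (1.35 ± 0.05), the protease *Lonp1* rose by 0.90 ± 0.05 and the cochaperone *Dnaja3* by 0.86 ± 0.04. The chaperonin *Hspd1* (0.19 ± 0.04) and the protease *Htra2* (0.27 ± 0.05) moved least among those named, and 34.2% of the *Hspd1* stretches occur elsewhere while 66.9% of the *Htra2* exon bases lie under opposite-strand genes.

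Markers of the IL-4/IL-13 response were lower in the Oli_ISR libraries. Of 19 markers, all tested, 13 were lower and 2 higher (median −0.72, with 8 lower by at least 2.5-fold), and for 13 the groups did not overlap in the lower direction, against 24.6% of all genes. *Retnla* (chr16:48662895-48664824, plus strand), a secreted resistin-like protein, had 7963, 8060.3, 7833 and 7161 CPM with IL-4/IL-13 and 348, 224, 388 and 161 CPM in Oli_ISR, with 0 to 0.398 CPM in naive macrophages. Its log2 fold change was −4.90 ± 0.16 (adjusted *P* = 3.1e-16), so that the Oli_ISR level lay far below the IL-4/IL-13 level and far above the naive level. The lectin gene *Mgl2* fell from 391, 374, 385 and 380 CPM to 75.1, 58.2, 77.1 and 52.5 CPM (−2.56 ± 0.07). *Irf4*, a transcription factor induced by IL-4, fell from 303, 314, 297 and 316 CPM to 82.2, 68.2, 80.3 and 65.1 CPM (−2.06 ± 0.08). The chemokine genes *Ccl24* (−2.98 ± 0.15), *Ccl17* (−1.85 ± 0.25) and *Ccl22* (−1.73 ± 0.10) were lower too, *Ccl17* at 0.441 to 0.758 CPM against 1.84 to 2.49 CPM.

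*Arg1*, the arginase that gives these cells their best known enzyme activity, moved less than these genes. It had 465, 473, 476 and 405 CPM with IL-4/IL-13 and 336, 304, 297 and 244 CPM in Oli_ISR, lower in each mouse with no overlap (−0.63 ± 0.07, adjusted *P* = 2.7e-08). *Chil3*, a secreted chitinase-like protein, had 3503, 3646, 3997 and 3092 CPM against 2765, 1860, 2853 and 1453 CPM (−0.72 ± 0.11), with mice 2 and 5 lowest. *Egr2*, an early IL-4 transcription factor, fell by 0.79 ± 0.06 on the log2 scale, with 234 to 241 CPM in all 4 Oli_ISR libraries. *Mrc1*, the mannose receptor, did not pass, with 607, 725, 714 and 573 CPM against 558, 624, 736 and 619 CPM (0.05 ± 0.05, adjusted *P* = 0.47). Against naive macrophages, 18 of the 19 markers were higher with IL-4/IL-13 (31.1% of all genes were) and 17 were higher in Oli_ISR (33.6% of all genes). The genes were listed as markers of these cytokines with earlier results known, so a rise over naive with IL-4/IL-13 is built into the list. The medians over the list were 5.36 for IL-4/IL-13 minus naive and 4.11 for Oli_ISR minus naive, comparisons that share the naive libraries.

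**Figure D3:**
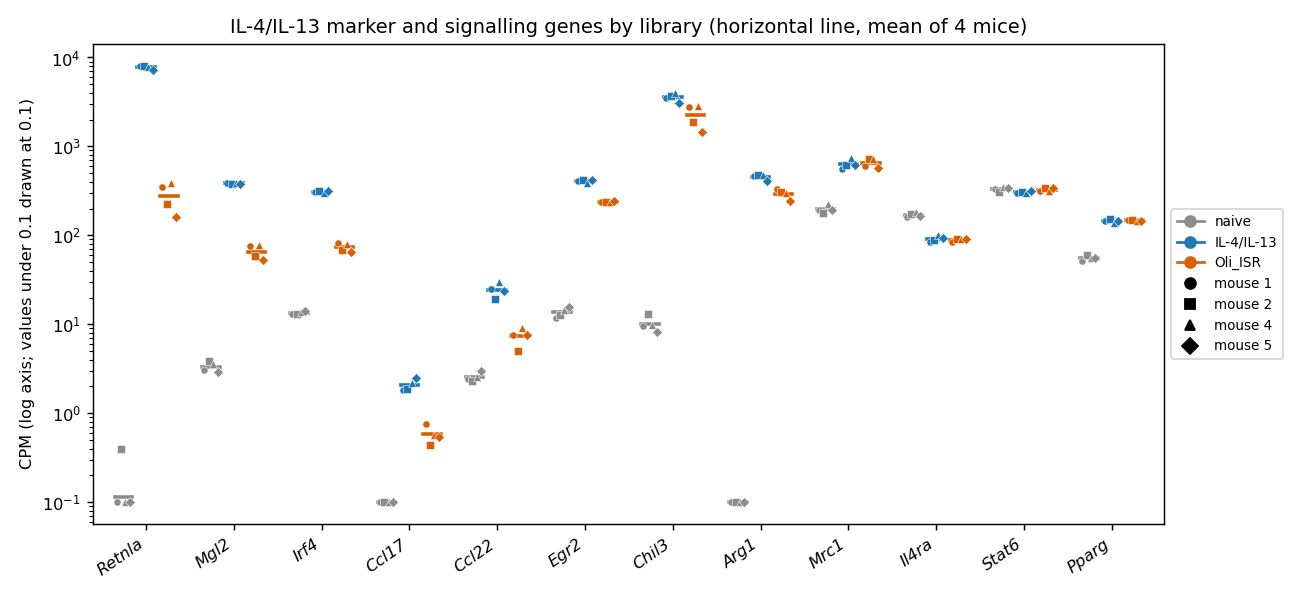
CPM (log axis) of 12 IL-4/IL-13 marker and signaling genes in each library, by group (color) and mouse (symbol), with lines at group means; values under 0.1 are drawn at 0.1. The Oli_ISR libraries lie between the other groups for *Retnla*, *Mgl2*, *Irf4* and *Arg1*, and they overlap the IL-4/IL-13 libraries for *Mrc1*, *Il4ra*, *Stat6* and *Pparg*.

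Genes of the receptors and their signaling showed no common direction, with 3 of 13 higher and 3 lower (median −0.03). *Il4ra*, the shared receptor chain, had 84.0 to 91.3 CPM in Oli_ISR against 84.7 to 100.0 CPM (−0.04 ± 0.04, adjusted *P* = 0.39), and *Stat6* had 313 to 338 CPM against 298 to 316 CPM (0.09 ± 0.04, adjusted *P* = 0.081). *Il13ra1*, the IL-13 receptor chain, was higher, at 14.9, 12.3, 12.3 and 11.96 CPM against 5.63, 5.70, 6.53 and 5.65 CPM (1.13 ± 0.10), as was *Il2rg* (0.43 ± 0.06). *Myc* fell from 67.1, 64.1, 58.9 and 62.9 CPM to 24.3, 23.0, 25.3 and 21.0 CPM (−1.44 ± 0.09), and the adaptor gene *Irs2* fell by 0.66 ± 0.08. Among 13 genes of PPARγ and fatty acid handling, 5 were higher and 6 lower. *Pparg* itself had 144 to 150 CPM against 137 to 152 CPM (0.03 ± 0.05, adjusted *P* = 0.66). The coactivator gene *Ppargc1b* fell by 1.68 ± 0.09, and the fatty acid-binding protein genes *Fabp5* (1.82 ± 0.07) and *Fabp4* (1.02 ± 0.06) rose. Of the *Fabp5* transcript's stretches, 24.2% occur elsewhere in the genome. *Hadhb*, of fatty acid oxidation, fell by 0.60 ± 0.05, with 70.1% of its transcript's stretches found elsewhere too.

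The letters of the palindromic STAT6 element, TTC and GAA with any 4 bases between, were in the windows of 3 of 16 markers, *Retnla*, *Ccl17* and *Pdcd1lg2*, and in 8.01% of 27025 genes. Among interferon-stimulated genes, 3 of 14 held them. The windows of *Mgl2* and *Irf4*, which fell by more than *Ccl17*, were without these letters. *Pdcd1lg2*, which encodes the PD-1 ligand PD-L2 and was picked for its element after its values were seen, went the other way, with 60.1, 56.9, 66.8 and 61.4 CPM with IL-4/IL-13 and 74.8, 70.3, 65.9 and 63.6 CPM in Oli_ISR. It was higher in 3 of 4 mice (0.16 ± 0.06, adjusted *P* = 0.018), and the call was lost without mouse 1 (0.10, adjusted *P* = 0.22) or mouse 2 (0.12, adjusted *P* = 0.076), with the 8 libraries alone, with upper-quartile normalization and with DESeq2. The stretches of all 3 are shown because they differ in how the genes moved. For *Retnla* the 173 bases before the first GENCODE exon are given (chr16:48662722-48662894, plus strand), with the element in capitals at −145 to −136 from the RefSeq start. For *Ccl17* (chr8:95536917-95536946, plus strand) it lies at −154 to −145, and for *Pdcd1lg2* (chr19:29388227-29388256, plus strand) at −82 to −73.
Retnla: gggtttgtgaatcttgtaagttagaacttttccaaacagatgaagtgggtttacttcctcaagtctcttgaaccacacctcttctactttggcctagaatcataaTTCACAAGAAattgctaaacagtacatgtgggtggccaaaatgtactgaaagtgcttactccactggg
Ccl17: cgagtgaccaTTCTCTGGAAagccacaaac
Pdcd1lg2: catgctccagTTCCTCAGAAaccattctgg

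The same genes were set against the other inhibitor groups in direct tests within the model. Against Oligo, 22.9% of all genes were higher in Oli_ISR and 21.4% lower. The ISR genes were mostly lower in Oli_ISR than in Oligo: 5 of 7 transcription factors (1 higher), 10 of 11 further targets (0 higher) and 16 of 20 cytosolic synthetases (1 higher). *Trib3* averaged 146 ± 4.35 CPM (SD, n = 4) in Oli_ISR and 542 ± 14.8 CPM in Oligo (log2 fold change Oli_ISR minus Oligo −1.89 ± 0.07). *Atf4* averaged 478 ± 20.0 and 704 ± 3.31 CPM (−0.56 ± 0.06) and *Ppp1r15a* 63.3 ± 5.35 and 184 ± 7.21 CPM (−1.54 ± 0.07), whereas *Asns* did not pass (−0.15 ± 0.08, adjusted *P* = 0.13). *Il6* averaged 18.0 CPM in Oligo, against 0.697 to 0.921 CPM in the Oli_ISR libraries. Of the 19 markers, 10 were higher and 4 lower in Oli_ISR than in Oligo (median 0.35). *Retnla* averaged 49.6 ± 11.5 CPM in Oligo (Oli_ISR minus Oligo 2.46 ± 0.17) and *Irf4* 25.4 ± 0.847 CPM (1.54 ± 0.09). *Egr2* averaged 105 ± 2.93 CPM (1.17 ± 0.06) and *Arg1* 148 ± 30.2 CPM (1.01 ± 0.07). *Mgl2* went the other way, with 108 ± 15.9 CPM in Oligo (−0.73 ± 0.07).

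Against Sal003, which keeps eIF2 phosphorylated by blocking its phosphatases, 11.4% of all genes were higher in Oli_ISR and 10.5% lower. All 7 ISR transcription factors, 8 of 11 further targets, 9 of 10 amino acid transporters and 14 of 20 cytosolic synthetases were higher in Oli_ISR, and none of these was lower. *Atf4* averaged 206 ± 30.8 CPM with Sal003 (Oli_ISR minus Sal003 1.22 ± 0.06), *Trib3* 33.8 ± 5.48 CPM (2.11 ± 0.07) and *Asns* 37.5 ± 5.79 CPM (1.96 ± 0.08). The markers split evenly, with 5 higher and 5 lower (median −0.13): *Arg1* was higher in Oli_ISR than in Sal003 (129 ± 24.6 CPM with Sal003, difference 1.21 ± 0.07), as was *Retnla* (155 ± 78.9 CPM, 0.90 ± 0.16), while *Irf4* was lower (89.1 ± 16.0 CPM, −0.27 ± 0.08) and *Egr2* did not pass (−0.06 ± 0.06, adjusted *P* = 0.50). Against tunicamycin, which blocks protein glycosylation in the ER, 37% of all genes were higher in Oli_ISR and 36.4% lower. All 18 ER chaperone and unfolded protein response genes were lower in Oli_ISR (median −3.12), with *Hspa5* at a mean of 12367 ± 782 CPM in tunicamycin. Of the 19 markers, 17 were higher in Oli_ISR than in tunicamycin (median 4.87), where *Arg1* averaged 0.111 CPM and *Retnla* 0.0119 CPM. The further ISR targets were lower in Oli_ISR for 8 of 11 and higher for 2, with *Trib3* at 835 CPM and *Il6* at 103 CPM in tunicamycin.

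The 13 mRNAs of mitochondrial DNA (mtDNA), which encode core subunits of the respiratory chain and ATP synthase, took 0.219 ± 0.034% of the gene counts in the Oli_ISR libraries and 0.868 ± 0.178% in the IL-4/IL-13 libraries (mean ± SD, n = 4). The share was lower in 4 of 4 mice, by 0.649 percentage points or 3.96-fold (two-sided exact permutation test over the 8 libraries as unpaired, *P* = 0.0286, the smallest this test can give with 4 libraries a group). With labels exchanged within mice only, the exact *P* was 0.125, which is the smallest that 4 pairs allow, so the paired form of the test cannot reach 0.05. It was 0.603 ± 0.127% in naive macrophages and 0.277% in Oligo, 0.387% in Sal003 and 0.493% in tunicamycin. Of the 13, 7 had enough counts to test, and all 7 were lower by at least 2.5-fold (median −2.06, range −2.56 to −1.52). Of these 7, *mt-Nd4* (−1.90 ± 0.15) had 60.8% and *mt-Co1* (−1.69 ± 0.13) 30.8% of their 100-base stretches also elsewhere in the genome, *mt-Nd2* had 3.19%, and the other 4 had none. *mt-Nd1* had 819, 1123, 853 and 1276 CPM with IL-4/IL-13 and 161, 166, 198 and 158 CPM in Oli_ISR (−2.56 ± 0.13), and *mt-Cytb* 873, 1230.1, 994 and 1326 CPM against 197, 164, 256 and 160 CPM (−2.51 ± 0.15). *mt-Nd6*, the only one of the 13 on the other strand, fell by 2.39 ± 0.14 and *mt-Nd5* by 2.06 ± 0.17. The IL-4/IL-13 libraries of mice 2 and 5 were highest and their Oli_ISR libraries were not, so the fall was largest in these mice. Mouse 4 had the smallest difference for 7 of 7 genes, and mouse 5 the largest for 6. The 6 untested mRNAs, among them *mt-Atp6* and *mt-Co3*, had 98.8 to 100% of their 100-base stretches also elsewhere in the genome, and the part this plays in their low counts was not tested.

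**Figure D4:**
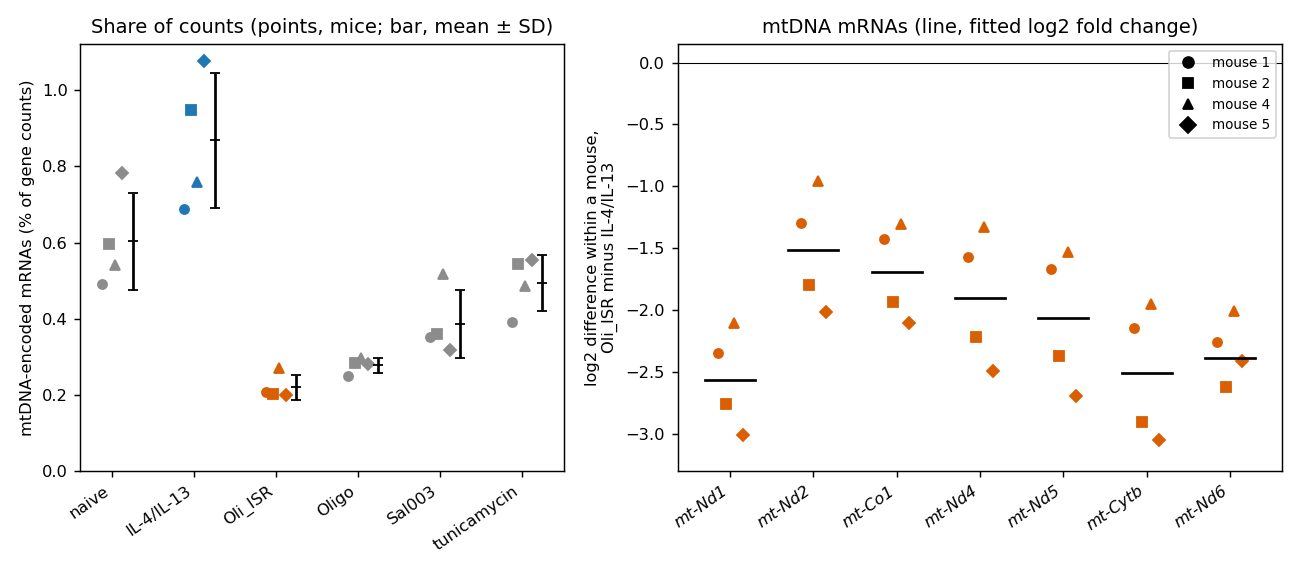
Left, share of gene counts on the 13 mtDNA mRNAs (%) in each library of 6 groups, with mean ± SD beside the points; right, log2 difference (Oli_ISR minus IL-4/IL-13) within each mouse for the 7 tested mRNAs, with lines at the fitted log2 fold changes. All 4 Oli_ISR libraries (0.198 to 0.269%) lie below the IL-4/IL-13 libraries (0.688 to 1.08%), and every within-mouse difference is below 0.

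Nuclear genes of the respiratory chain were lower by small amounts. Of 18 ATP synthase genes, the target of oligomycin, all 18 were lower (median −0.46), with *Atp5mc3*, a gene of the membrane ring, falling from 235, 221, 214 and 208 CPM to 122, 99.1, 129 and 114 CPM (−0.92 ± 0.09). *Atp5if1*, the natural inhibitor of the enzyme, fell by 0.45 ± 0.08. Of 24 genes of complexes II to IV, 22 were lower and none was higher (median −0.46), such as *Uqcrh* (−0.91 ± 0.11) and *Sdhd* (−0.67 ± 0.05). Of 36 complex I genes, 18 were lower and none was higher (median −0.20), with *Ndufb2* (−0.94 ± 0.13) and *Ndufs1* (−0.50 ± 0.04) as examples. The complex I count was 30 lower when the model was fitted to the 8 libraries alone. None of these nuclear genes passed 2.5-fold, whereas all tested mtDNA mRNAs did. Against Oligo, 20 of the 24 genes of complexes II to IV and 13 of the 18 ATP synthase genes were higher in Oli_ISR. None of them was lower, where 22.9% of all genes were higher and 21.4% lower.

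Genes that transcribe mtDNA and process its RNA had no common direction, with 6 of 18 higher and 3 lower (median 0.10). Those named were the RNase P subunits *Hsd17b10* (0.67 ± 0.08) and *Trmt10c* (0.47 ± 0.06) and the RNA granule protein gene *Fastkd2* (0.53 ± 0.06), all higher, and the transcription factor *Tfb2m*, lower (−0.36 ± 0.09), with 57.5% of the *Tfb2m* stretches found elsewhere. Tricarboxylic acid (TCA) cycle genes were lower for 17 of 20 and higher for 1 (median −0.37), led by *Idh3a* (−0.86 ± 0.06) and *Fh1* (−0.84 ± 0.07). Of 19 glycolysis genes, 11 were higher and 5 lower (median 0.16), led by the hexokinase *Hk3* (0.97 ± 0.04) and the phosphofructokinase *Pfkl* (0.86 ± 0.07, with 39.8% of exon bases under an opposite-strand gene). *Ldha*, lactate dehydrogenase, rose from 640, 657, 706 and 663 CPM to 1040.3, 978, 975 and 985 CPM (0.58 ± 0.06), and the glucose transporter *Slc2a1* rose by 0.62 ± 0.07.

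Proliferation genes were lower throughout. All 24 listed genes were lower, 21 of them by at least 2.5-fold (median −2.45). For all 24 the groups did not overlap, against 24.6% of all genes not overlapping in this direction. *Mki67*, the common marker of dividing cells, had 82.7, 68.8, 88.1 and 63.7 CPM with IL-4/IL-13 and 10.0, 10.9, 12.9 and 10.9 CPM in Oli_ISR (−2.77 ± 0.11), and naive macrophages had 18.5 to 26.6 CPM. The S phase genes *Ccne2* (−4.29 ± 0.18) and *Rrm2* (−4.08 ± 0.17, with 43.3% of exon bases under an opposite-strand gene) and the mitotic genes *Ccna2* (−3.67 ± 0.15) and *Plk1* (−3.28 ± 0.13) fell most. Against naive macrophages all 24 were higher with IL-4/IL-13 (median 1.53), where 31.1% of all genes were higher. In Oli_ISR, 19 were lower than in naive macrophages and 2 higher (median −1.03), where 33.1% of all genes were lower. Against Sal003, 0 were higher and 4 lower (11.4% and 10.5% of all genes). Against Oligo, 7 were higher and 3 lower (22.9% and 21.4% of all genes).

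Interferon-stimulated genes were higher in the Oli_ISR libraries, 17 of 18 of them (16 by at least 2.5-fold) with none lower, and their median of 2.57 was the highest of all lists. *Ifit3*, an antiviral RNA-binding protein family member, had 3.40, 3.13, 3.74 and 4.55 CPM with IL-4/IL-13 and 98.1, 202, 46.4 and 210 CPM in Oli_ISR (5.12 ± 0.40, adjusted *P* = 7.3e-12), with 26.6% of its stretches shared with other sequence. *Rsad2* (viperin) had 7.24, 6.86, 9.48 and 9.95 CPM against 157, 283, 94.6 and 256 CPM (4.49 ± 0.29). *Ifit2* went from 12.2, 11.7, 12.3 and 15.5 CPM to 296, 594, 158 and 570 CPM (4.86 ± 0.30), and *Ifi44* rose by 5.00 ± 0.34. No groups overlapped for these genes, but the Oli_ISR libraries differed among themselves far more than for the ISR genes. Within a mouse, the difference was lowest in mouse 4 for 18 of 18 genes and highest in mouse 2 for 17, and the list medians were 2.24, 3.27, 1.88 and 2.77 in mice 1, 2, 4 and 5. *Gbp2* was the exception, with a log2 fold change of 0.00.

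**Figure D5:**
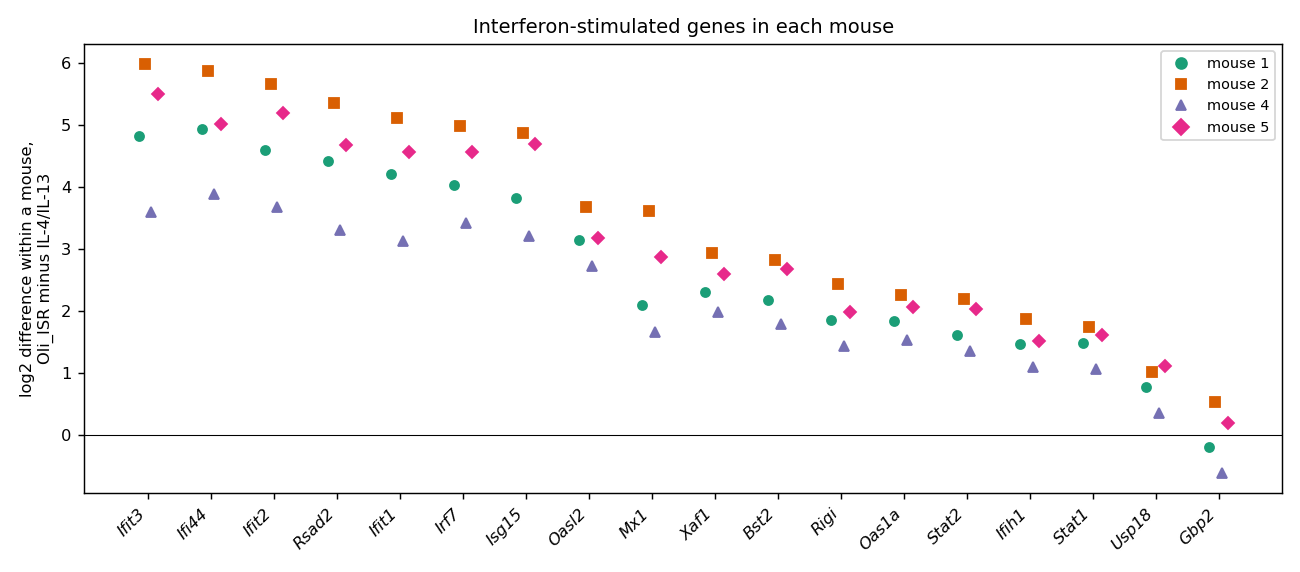
Log2 difference (Oli_ISR minus IL-4/IL-13) within each of 4 mice for 18 interferon-stimulated genes, ordered by fitted change. Mouse 4 is lowest for all 18 genes and mouse 2 highest for 17, and all 4 mice lie above 0 for each gene but *Gbp2*.

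These genes were not low in naive macrophages. *Ifit3* had 279, 306, 230 and 233 CPM there, *Rsad2* averaged 153 CPM, and 16 of 18 were lower with IL-4/IL-13 than in naive macrophages (median −2.84), where 32.6% of all genes were lower. Oli_ISR minus naive had a median of 0.07, with 5 genes higher and 3 lower, and the IL-4/IL-13 and naive libraries are each shared by a pair of these comparisons. Against Sal003, 0 were higher and 1 lower (11.4% and 10.5% of all genes). Against Oligo, 8 were higher and 0 lower (22.9% and 21.4% of all genes). *Ifit2* averaged 200.3 ± 51.3 CPM in Oligo and 404 ± 212 CPM in Oli_ISR (0.94 ± 0.24). *Fcgr1*, the high-affinity IgG receptor of macrophages, followed the same pattern, with 34.4, 35.1, 38.5 and 39.7 CPM with IL-4/IL-13, 269, 415, 189 and 403 CPM in Oli_ISR, and 457 to 546 CPM in naive macrophages (3.07 ± 0.16). Of 9 macrophage identity genes, 4 were higher and 1 lower, and besides *Fcgr1* the changes were small, such as *Cd68* (0.60 ± 0.05) and *Adgre1* (0.57 ± 0.05).

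Among 15 inflammatory genes, 6 were higher and 2 lower (median 0.20). *Acod1*, which makes itaconate, had 1.06, 1.21, 1.95 and 2.31 CPM with IL-4/IL-13 and 6.55, 15.5, 8.43 and 12.9 CPM in Oli_ISR (2.72 ± 0.28), and the interferon-inducible chemokine gene *Cxcl10* rose by 1.73 ± 0.51 at 1.13 to 4.35 CPM. *Nos2* had 4, 12, 1 and 9 counts against 3, 3, 0 and 2, a ratio of 2.97 (exact 95% interval 1.31 to 7.59, counting error only), and its adjusted *P* of 0.045 rose to 0.061 without mouse 1, 0.18 without mouse 2 and 0.13 without mouse 5. *Il1b* did not pass (−0.48 ± 0.44, adjusted *P* = 0.36) and had 0.163 to 0.542 CPM in the Oli_ISR libraries.

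Among the remaining lists, 12 of 18 lysosomal genes were higher and 2 lower (median 0.52). *Ctsl*, cathepsin L, rose from 899, 971, 1142 and 934 CPM to 2464, 2261, 2696 and 2092 CPM (1.27 ± 0.05), and the α-galactosidase *Gla* (1.17 ± 0.05) and the lysosomal cholesterol exporter *Npc1* (1.03 ± 0.06) rose alike. *Ctsd* rose by 1.26 ± 0.08, with 29.2% of its exon bases under a same-strand gene. Cholesterol synthesis genes were lower for 11 of 19 and higher for 1 (median −0.28), such as *Nsdhl* (−0.92 ± 0.07), at 33.1 to 36.1 CPM with IL-4/IL-13 and 18.0 to 18.7 CPM in Oli_ISR. *Hmgcs1*, near the start of that pathway, did not pass (0.01 ± 0.05, adjusted *P* = 0.92). Targets of the antioxidant factor NRF2 were lower for 8 of 12 and higher for 1 (median −0.40), led by *Osgin1* (−1.48 ± 0.09) and *Nqo1* (−0.75 ± 0.12), and the gene that rose was *Slc7a11*. Of 12 cell death and p53 genes, 8 were higher and 2 lower (median 0.23), with the death inhibitors *Bcl2* (0.78 ± 0.08) and *Bcl2l1* (0.54 ± 0.06) higher and *Trp53inp1* lower (−0.54 ± 0.05).

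The largest changes among genes that averaged 50 counts or more in the 8 libraries and moved one way in 4 of 4 mice drew on several of these groups. Besides *Chac1*, *Trib3*, *Ifit3* and *Ifi44*, the 10 largest rises were of the guanylate-binding protein gene *Gbp11* (7.09 ± 0.98), the cholesterol-esterifying enzyme *Soat2* (6.72 ± 0.52), the interferon-inducible genes *Ifi206* (5.28 ± 0.31) and *Ifi208* (5.18 ± 0.61), the membrane protein gene *Ms4a4c* (4.95 ± 0.86) and *Ifit3b* (4.95 ± 0.96). Of the *Ifit3b* stretches, 27.2% are shared with other sequence. *Soat2* had 0.223, 0.252, 0.105 and 0.182 CPM with IL-4/IL-13 and 15.3, 22.8, 21.2 and 24.0 CPM in Oli_ISR, and *Gbp11* 0 to 0.243 CPM against 8.67, 18.1, 11.1 and 18.5 CPM. Both were under 1 CPM in naive macrophages too, unlike the interferon-stimulated genes above. *Ms4a4c* varied most between mice, with 18.7, 68.8, 8.54 and 72.6 CPM in Oli_ISR. The 10 largest falls included *Retnla* and *Ccne2*. The others were *Gfra2*, a receptor subunit for the neurotrophic factor neurturin (−5.40 ± 0.40), the replication protein gene *Pclaf* (−4.97 ± 0.23), *Ear2*, a secreted ribonuclease (−4.95 ± 0.12), the IL-33 receptor gene *Il1rl1* (−4.88 ± 0.18), the cell cycle repressor *E2f7* (−4.51 ± 0.38), the endonuclease gene *Ankle1* (−4.43 ± 0.38), and the neighbors *Tmem176b* (−4.41 ± 0.10) and *Tmem176a* (−4.18 ± 0.09), which overlap each other on opposite strands. *Ear2* fell from 395, 405, 435 and 392 CPM to 13.8, 11.2, 18.2 and 10.6 CPM, with 22.9% of its stretches shared with other sequence, and *Il1rl1* from 78.9, 80.9, 76.1 and 75.4 CPM to 3.95, 2.15, 2.77 and 1.90 CPM. *Tmem176b* had 173 to 192 CPM with IL-4/IL-13 and 7.66 to 9.86 CPM in Oli_ISR, below its naive mean of 393 CPM as well.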

How the data were processed

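RNA was sequenced from macrophages of 4 mice in 6 conditions, 24 libraries. The authors used Cutadapt 1.8 for trimming, filtered out reads of ribosomal RNA and of low complexity, mapped what remained to GRCm39 (STAR 2.7) and obtained counts with HTSeq 0.9.1. The strand setting is not given in the sources used here. The deposited values used are these raw counts per Ensembl gene, without normalization, for 56884 genes, and 56323 of the identifiers were found in GENCODE, from which symbols and coordinates were taken. A further 5 rows that name no gene, 12.74% to 15.231% of the reads of a library, entered neither library sizes nor tests. The authors' TPM values (RSEM 1.2.31) were not used, because the header names could be given to columns only by order, and the authors' own fold changes were not used either.

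Groups followed the library names, and mice the leading number. edgeR 4.0.16 (R 4.3.3) was fitted to all 24 libraries with TMM normalization, filterByExpr by group (13679 genes), a coefficient per condition and the mouse as a block, leaving 15 residual degrees of freedom. By the sample titles, same-numbered libraries come from the same animal. Their deviations from the group means correlated by 0.137 to 0.510 (4 pairs) between the 2 groups, against −0.367 to 0.225 for different mice (12 pairs). These ranges overlap, and deviations from a mean of 4 libraries depend on each other, so the values do not test the pairing. Replicates differed by more than sampling noise (chi-square per gene 2.85 to 18.9), so each was counted. Genes were called at a Benjamini-Hochberg adjusted *P* under 0.05, and counted also at 2.5-fold. *P* values of the edgeR test rest on the spread left once condition and mouse are fitted, estimated over all 24 libraries. Differences between mice that all conditions share are taken out by the block. In a simulation over 13679 genes, 50 genes were changed at each fold, the rest were left unchanged, and mouse effects were alike in all conditions. Recovered were 23 of 50 genes changed by 1.25-fold, 40 of 50 by 1.5-fold, 46 of 50 by 2-fold and 50 of 50 by 4-fold, with 3 false calls. Far more genes were called in the real comparison, so these rates need not hold for it.

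Alternatives were no replicate block, upper-quartile and RLE normalization, no filter, at least 10 counts in every library, only the 8 libraries compared, DESeq2 1.42.0, other fold thresholds and leaving out each mouse. The 28 gene lists (468 genes) and the comparison itself were chosen with earlier results of these data known. Named genes were preset members of each list, up to 4 largest passing changes per list, and the 10 largest rises and falls with a mean of at least 50 counts and the same direction in 4 mice; a few are not reported here. Promoter windows are RefSeq's for GRCm38.p6, printed only where they match GRCm39 exactly. The share of a transcript's 100-base stretches found elsewhere in GRCm39 was taken as a measure of shared sequence. For a ratio of counts, an exact 95% interval is given, and means and SD are over mice. The SE of a log2 fold change is that of the edgeR model, with the spread estimated over all 24 libraries.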

Additional observations from a re-analysis of the deposited data

Results flagged for a closer look

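In each group of 4 libraries, the highest or lowest value was compared with the spread of the others by Dixon's test, for the named genes and the library measures of the Oli_ISR and IL-4/IL-13 groups. Of 292 such groups, 20 held a library that stood apart (6.85%), and chance alone gives about 1 in 20. The causes were not tested.

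Among library measures, the Oli_ISR library of mouse 5 had 26725278 gene counts, against 18514993 to 19381936 in the others, and the Oli_ISR library of mouse 4 had the highest share of mtDNA mRNA counts, 0.269% against 0.198 to 0.208%.

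Among the Oli_ISR libraries, mouse 1 was high for *Il13ra1* (14.9 CPM, others 11.96 to 12.3), *Ldha* (1040.3, others 975 to 985) and *Trmt10c* (28.5, others 24.2 to 24.7), and low for *Fastkd2* (19.8, others 21.3 to 21.6) and *Il4ra* (84.0, others 90.2 to 91.3). Mouse 4 was high for *Sars1* (233 CPM, others 223 to 225) and *Uqcrh* (69.9, others 63.5 to 64.5). Mouse 5 was high for *Cycs*, the cytochrome c gene (2.67 CPM, others 1.75 to 1.79), and *Shmt2* (71.6, others 68.0 to 68.6).

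Among the IL-4/IL-13 libraries, mouse 4 was high for *Gla* (138 CPM, others 120.2 to 122), *Il13ra1* (6.53, others 5.63 to 5.70), *Slc7a11* (17.4, others 13.6 to 14.0) and *Slc7a5* (7.11, others 5.85 to 5.90), and low for *Atp5if1* (118, others 129 to 130) and *Cars2* (21.6, others 26.2 to 26.9). Mouse 5 was low for *Arg1* (405 CPM, others 465 to 476) and high for *Aars2* (11.7, others 9.63 to 9.97) and *Ifit2* (15.5, others 11.7 to 12.3).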

How the results depend on the processing

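No gene called in the comparison of Oli_ISR with IL-4/IL-13 changed sign under any alternative, and the counts of genes higher and lower stayed within 1.5 times the values reported. With no replicate block for the mouse, 3822 genes were higher and 3606 lower, and 7410 calls were shared. With DESeq2 these were 3624 and 3951 (7420 shared), with upper-quartile normalization 3400 and 4397, which moved the median of all genes to −0.05, and without each mouse in turn 3290 to 3998 and 3469 to 3756. The share of calls that were higher was 43.6% with upper-quartile normalization and 50.7% as reported. At 2.5-fold, 217 genes were higher and 273 lower with at least 10 counts in every library (11017 genes tested), 223 and 433 when 2.5-fold was the null of the test, and 621 were higher at a 2-fold threshold.

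Among gene lists, the count of IL-4/IL-13 markers lower was 7, of inflammatory genes 3 higher and 1 lower, and of other cell types 3 lower with at least 10 counts in every library, where fewer members could be tested. Without the replicate block, 1 inflammatory gene and 7 markers of other cell types were lower. Complex I genes lower were 30 with only the 8 libraries compared. ER chaperone genes higher were 3, against 4 as reported, under each alternative fit that kept all 4 mice. The marker count higher was 1, and 1 mitochondrial chaperone or protease was lower, with upper-quartile normalization, with at least 10 counts, with the 8 libraries alone and with DESeq2, and the latter also with RLE normalization. With no filter, 1 lysosomal gene was lower. The causes were not tested.

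Without a single mouse, ER chaperone genes higher ranged from 2 to 3 against 4 as reported (2 without mouse 1), IL-4/IL-13 markers higher from 1 to 2 (1 without mouse 1 or mouse 2), inflammatory genes lower from 1 to 2 (1 without mouse 1), NRF2 targets higher from 0 to 2 (0 without mouse 1, 2 without mouse 2), lysosomal genes lower from 1 to 2 (1 without mouse 1, 2 or 5) and macrophage identity genes lower from 0 to 1 (0 without mouse 1, 4 or 5). The difference in the mtDNA mRNA share ranged from −0.705 to −0.573 percentage points, and 3 against 3 libraries cannot give a *P* under 0.1. With labels exchanged within mice only, a test chosen after seeing the data, the difference of −0.649 percentage points had an exact *P* of 0.125, the smallest that the mouse as a block allows. The call of *Col3a1* was lost without the replicate block (−1.50, adjusted *P* = 0.070), and that of *Nos2* also with upper-quartile normalization (adjusted *P* = 0.052).

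Depth limits the rarest genes, such as *Il6* and *Nos2*, whose intervals are wide, and the labels do not settle which oligomycin group received ISRIB.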
